A study of Mus musculus with 62 samples.

Results

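Nmrk2, Atcayos, Atcay and Dapk3 are 4 neighbouring genes on mouse chromosome 10, chosen by symbol from the 55487 genes of the deposited count table. They were chosen because earlier results of these data showed Nmrk2 lower and Atcayos higher in muscle of mice given nicotinamide riboside (NR). All differences between animals with and without NR are therefore given here as a description, without a test. All 4 genes were among the 14549 that passed the filter on low counts.

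NMRK2 is a kinase, enriched in skeletal and cardiac muscle, that phosphorylates NR to nicotinamide mononucleotide, which NMNAT enzymes then turn into NAD. Its paralogue NMRK1 carries out the same step in many tissues. The larger share of NAD in most cells comes from nicotinamide by way of NAMPT. Atcayos is annotated as a noncoding antisense RNA. Atcay encodes caytaxin, a protein known from neurons, and Dapk3 encodes a serine/threonine kinase that acts on myosin light chains.

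The study measured poly-A RNA of the quadriceps, a thigh muscle, in 62 male mice. Its 8 groups crossed voluntary wheel running (labelled Training, 30 mice, against noTraining, 32 mice) with NR (31 mice with, 31 without) and with pterostilbene (PT, 32 mice with, 30 without). PT is a methylated relative of resveratrol. The groups were neither supplement, NR alone, PT alone and both, each in sedentary and in running mice, with 7 or 8 mice each. NR was given intravenously according to the title of the series, and neither strain nor age nor dose is stated in the labels. Tissue was taken on 8 days, 4 in each of 2 cohorts, in a morning and a noon session per day. Each of the 16 sessions held either runners or sedentary mice, with 1 mouse for each NR and PT combination, except that the running session of day 4 had no mouse with neither supplement and that of day 8 none with NR alone. NR and PT were thus compared within sessions, whereas running was compared between sessions.

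Libraries held 5.64 to 30.8 M counted reads (M for 1e+06), with a median of 16.1 M. RNA integrity numbers were 8.6 to 10. In 8 libraries, 5 of them from mice with NR, 3 ribosomal-RNA-like genes exceeded 5 times their median level. The 6 markers of skeletal muscle fibres summed to 81561 to 149187 counts per M reads (CPM) with NR and to 114753 to 150969 CPM without, so the labelled tissue carried its defining transcripts. Since whole muscle was sequenced, fewer cells of a type and less RNA per cell cannot be told apart. Labels tie each library to its own body weight change, and each was taken as 1 animal. P-values measure the spread between these animals.

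Along the chromosome (mm10, coordinates as deposited) the genes lie in the order Dapk3, Atcayos with Nmrk2 inside it, and Atcay. Dapk3 (ENSMUSG00000034974, chr10:81183005-81193197) is on the plus strand and ends 1411 bases before Atcayos. Atcayos (ENSMUSG00000085779) is also on the plus strand and starts at 81194609. The table ends it at 81209161, whereas GENCODE M21 ends it at 81210877, and the deposited length of 4375 exon bases is that of the longer model. Nmrk2 (ENSMUSG00000004939, chr10:81198170-81202051) is on the minus strand, spans 3882 bases and has 1854 exon bases. Atcay (ENSMUSG00000034958, chr10:81204508-81230785) is on the minus strand and has 3996 exon bases. Its 3′ end lies 2456 bases beyond Nmrk2, on the side of the Nmrk2 start.

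Nmrk2 and Atcayos meet tail to tail. The last exon of transcript Atcayos-201 and the last, 1277-base exon of Nmrk2 share 270 bases (chr10:81198170-81198439), which make up 14.6% of the Nmrk2 exon bases and 6.17% of those of Atcayos. The other 966 bases of that Atcayos exon lie beyond the 3′ end of Nmrk2. The transcripts Atcayos-202 and Atcayos-203 instead splice over Nmrk2, which lies within their intron, and enter Atcay. Atcayos and Atcay share 432 exon bases, or 10.8% of the exon bases of Atcay.

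**Figure D1:**
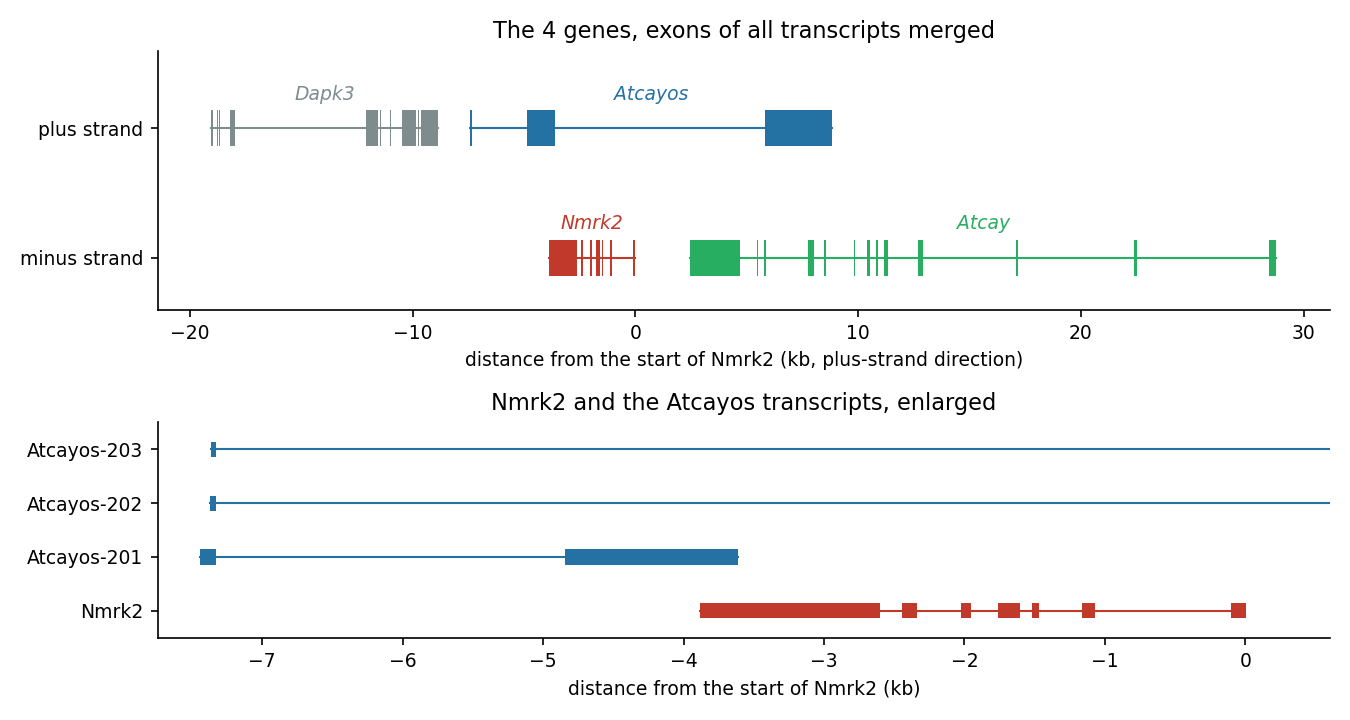
Exons (boxes) of the 4 genes in GENCODE M21, drawn to scale by distance in kb from the start of Nmrk2, with the plus strand above the minus strand, and below an enlarged view of Nmrk2 with the 3 Atcayos transcripts. Nmrk2 and Atcayos-201 overlap at their last exons by 270 bases, and the other 2 Atcayos transcripts have Nmrk2 inside an intron.

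The promoter windows of Nmrk2 and Atcayos are shown because these genes differed with NR in opposite directions and each has an annotated start of its own. Use of these starts was not measured. Each is the 250 bases before the RefSeq start (GRCm38.p6), printed 5′ to 3′ in the direction of the gene. The Nmrk2 window is chr10:81202038-81202287 on the minus strand, and the Atcayos window is chr10:81194441-81194690 on the plus strand. Capitals mark matches on either strand to the TATA box letters TATAAA, to the GC box letters GGGCGG, to the E-box letters CANNTG and to the letters TGACG of the cAMP response element.
Nmrk2: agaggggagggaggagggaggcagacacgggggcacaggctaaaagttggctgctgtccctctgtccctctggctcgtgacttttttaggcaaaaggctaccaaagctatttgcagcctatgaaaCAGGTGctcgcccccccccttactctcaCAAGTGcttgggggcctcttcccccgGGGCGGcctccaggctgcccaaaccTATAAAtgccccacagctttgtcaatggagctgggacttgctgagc
Atcayos: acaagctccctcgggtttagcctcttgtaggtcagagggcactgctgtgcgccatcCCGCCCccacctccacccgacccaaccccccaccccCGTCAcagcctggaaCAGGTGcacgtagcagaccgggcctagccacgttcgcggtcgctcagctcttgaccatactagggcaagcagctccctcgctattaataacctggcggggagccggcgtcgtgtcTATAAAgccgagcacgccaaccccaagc
RefSeq starts both genes inside the deposited models, so the windows overlap the first annotated bases. Each window held 1 TATAAA on the gene's strand. Its first base lay 46 bases before the RefSeq start of Nmrk2 and 28 bases before that of Atcayos. The Atcayos match lies within the first exon of Atcayos-201 (chr10:81194609-81194722), which starts upstream of the RefSeq start. Of 32851 RefSeq windows of the same length, 12.4% held this motif. GGGCGG occurred once in each (32.7% of windows). CANNTG occurred 2 times for Nmrk2 and 1 time for Atcayos (66.2% of windows), in both as CAGGTG at least once. TGACG was matched 1 time for Atcayos and 0 times for Nmrk2 (17.8% of windows). These are matches of letters only. Dapk3 has 3 RefSeq windows and no TATAAA match in them.

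The libraries were made with a strand-marking kit, but whether reads were counted by strand is not stated in the labels. Of 495 genes whose exons are wholly covered by exons of the opposite strand, 492 (99.4%) had 0 reads in all 62 libraries, and the highest had 22 reads in all. Among coding and long noncoding genes, 170 of 173 wholly covered genes (98.3%) were at 0, against 7382 of 26294 without such cover (28.1%). This is the pattern that counting without strand, with reads over 2 genes dropped, would leave. Reads from an Atcayos exon and from RNA of the other strand there then cannot be told apart, and the 270 shared bases give reads to neither gene. The part of this in the values below was not tested.

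Compared per deposited length, Nmrk2 had the highest mean of the 4 genes over all animals, but not within both arms. The 4375 bases of Atcayos are the union of the exons of 3 transcripts, none of which holds them all. Which of these gave the reads was not measured, and bases shared with the other strand count towards the lengths. The order of Nmrk2 and Atcayos below therefore holds for these lengths only. Its mean level was 35.2 reads per kilobase of exon and per M reads (RPKM), rank 887 of the 14549 genes, close to the 33.1 RPKM of Nampt. Atcayos followed at 24.3 RPKM, then Dapk3 at 5.61 RPKM and Atcay at 3.46 RPKM. Without NR Nmrk2 was at 48.1 ± 18.5 RPKM and Atcayos at 21.9 ± 2.33 RPKM (SD, n = 31), whereas with NR Nmrk2, at 22.3 ± 9.05 RPKM, was below Atcayos, at 26.7 ± 3.00 RPKM (SD, n = 31). The paralogue Nmrk1 had 1.67 RPKM. The ratio of Nmrk2 to Nmrk1 per length was 28.7 ± 11.9 (SD, n = 31) without NR and 13.7 ± 5.65 (SD, n = 31) with NR, so Nmrk2 was the higher of the paralogues in both arms. In single libraries Nmrk2 had 193 to 4820 reads, Atcayos 457 to 3895, Atcay 90 to 563 and Dapk3 61 to 533.

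Nmrk2 was lower with NR in sedentary and in running mice. Without NR its level ran from 36.4 CPM to 150 CPM with a median of 86.4 CPM (89.2 ± 34.3, mean ± SD, n = 31). With NR it ran from 15.6 to 76.7 CPM with a median of 38.6 CPM (41.4 ± 16.8, SD, n = 31). The ranges overlap between 36.4 and 76.7 CPM, and the spread of each arm is wide. The fitted log2 difference, with minus for lower with NR, was -1.11 ± 0.14 (SE), a ratio of 0.464. Only 1 of the 14549 genes had a larger absolute difference with NR.

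The 4 groups without NR had the 4 highest means of Nmrk2. In sedentary mice with neither supplement the lowest, median and highest levels were 54.9, 107 and 149 CPM (mean 104 ± 32.5, SD, n = 8). In sedentary mice with PT alone they were 41.5, 89.1 and 150 CPM (90.9 ± 33.6, n = 8). These 2 groups overlap over nearly their whole range. In runners with PT alone they were 46.7, 84.9 and 143 CPM (87.8 ± 32.6, n = 8). In runners with neither they were 36.4, 58.9 and 150 CPM (71.9 ± 37.8, n = 7). In that last group 1 runner stood at 150 CPM while the others lay between 36.4 and 86.9 CPM.

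The groups with NR were lower and narrower. Runners with both supplements had 26.3, 40.6 and 76.7 CPM (45.7 ± 18.4, n = 8). Runners with NR alone had 15.6, 32.0 and 74.6 CPM (42.1 ± 20.8, n = 7). In both running groups the highest animals reached the range of the runners without NR. Sedentary mice with both had 21.1, 35.7 and 71.9 CPM (40.0 ± 18.6, n = 8). Sedentary mice with NR alone had 17.9, 38.5 and 52.1 CPM (37.8 ± 10.6, n = 8), so that their highest animal lay below the lowest sedentary animal with neither supplement, at 54.9 CPM. In the order of the 8 means, each group's range overlaps that of its neighbours, and neighbouring means differ by less than the larger SD of the pair.

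**Figure D2:**
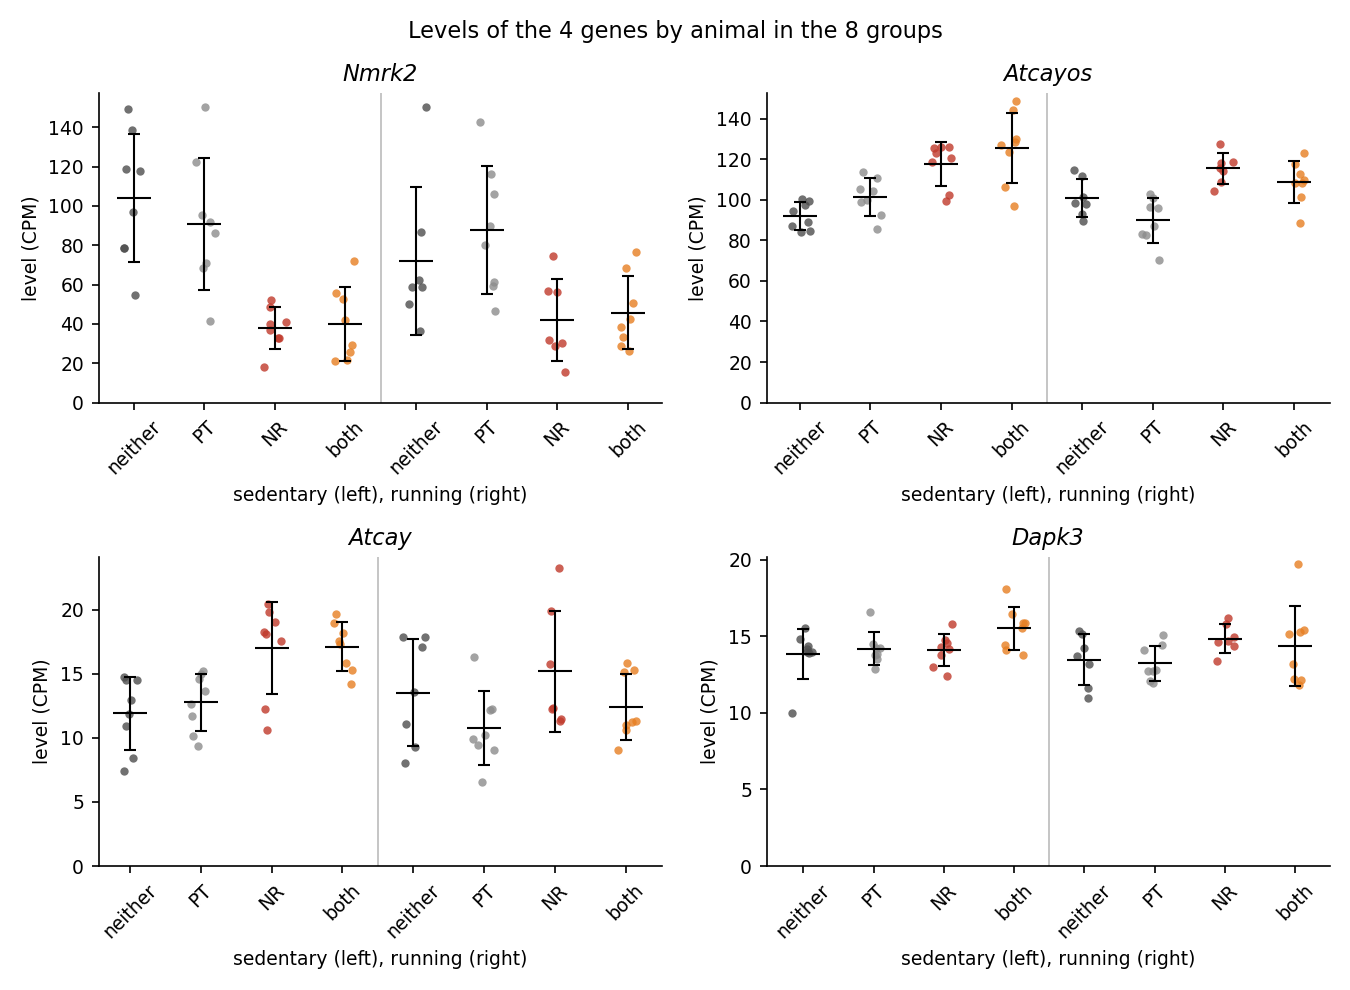
Level of each gene in CPM (y axis, linear) for every animal (points) of the 8 groups (x axis), with the group mean and SD (bars). For Nmrk2 the 4 NR groups have means of 37.8 to 45.7 CPM and the 4 others of 71.9 to 104 CPM, whereas Dapk3 means lie between 13.2 and 15.5 CPM in all groups.

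The antisense gene Atcayos differed the opposite way and varied less between animals. Without NR its levels were 70.4 to 115 CPM with a median of 97.5 CPM (95.9 ± 10.2, SD, n = 31). With NR they were 88.4 to 149 CPM with a median of 118 CPM (117 ± 13.1, SD, n = 31). The log2 difference was 0.28 ± 0.04 (SE), a ratio of 1.22. The overlap was large in the middle, but no animal without NR was above 115 CPM. By group the means were highest in sedentary mice with both supplements (126 ± 17.3 CPM, n = 8) and with NR alone (118 ± 10.8 CPM, n = 8). Runners with NR alone followed at 115 ± 7.47 CPM (n = 7) and runners with both at 109 ± 10.4 CPM (n = 8). The lowest mean was in runners with PT alone, at 89.9 ± 11.04 CPM (n = 8). Neighbouring groups in this order overlap.

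Atcay, whose exons Atcayos enters, was also higher with NR. Without NR it had 6.59 to 17.9 CPM with a median of 12.2 CPM (12.2 ± 3.09, SD, n = 31). With NR it had 9.03 to 23.3 CPM with a median of 15.7 CPM (15.4 ± 3.70, SD, n = 31). The ranges overlap from 9.03 to 17.9 CPM, and the log2 difference was 0.33 ± 0.09 (SE). Caytaxin is a neuronal protein, and the 11 markers of nerve and Schwann cells summed to 50.5 to 96.8 CPM with NR (median 74.1 CPM) and 62.5 to 97.3 CPM without (median 79.4 CPM). Of those 11 markers 7 were tested, with a median log2 change of -0.07 for NR. Their part in the Atcay difference was not tested. Of the markers of neurons, Snap25 had 2 reads in all libraries together, Elavl3 averaged 0.024 CPM, Syt1 0.068 CPM, Tubb3 0.32 CPM and Stmn2 1.83 CPM. Dapk3, on the other side, had 10.0 to 16.6 CPM without NR (13.7 ± 1.39, SD, n = 31) and 11.8 to 19.7 CPM with NR (14.7 ± 1.67, SD, n = 31). Its log2 difference was 0.09 ± 0.04 (SE), and the arms overlapped almost fully.

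Because Nmrk2 and Atcayos overlap, the sum and shares of their reads were also computed. Most of the 4375 Atcayos exon bases lie outside Nmrk2, 3025 of them in an exon of Atcayos-203 within Atcay. Sum and share combine the NR differences for which the genes were chosen, and are not scaled to gene length. The sum of both genes was 158 ± 13.8 CPM with NR and 185 ± 30.3 CPM without (SD, n = 31 each), so the gain in Atcayos was smaller than the loss in Nmrk2. The share of Nmrk2 in the reads of both genes was 25.8 ± 9.06% with NR and 46.7 ± 11.1% without (SD, n = 31 each). Single animals ran from 11.6% to 43.6% with NR and from 27.1% to 63.99% without.

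Mice with and without NR could be matched within a session, and with the same PT status, in 30 pairs. Nmrk2 was lower in the NR mouse of 28 pairs, with a median log2 ratio of -1.13 and a range of -2.43 to 0.34. Both exceptions were runners without PT, on day 3 (56.3 CPM with NR, 49.9 CPM without) and on day 7 (74.6 and 58.8 CPM). Over all genes 0.0206% (3 of 14549) passed an adjusted p of 0.05 for NR in edgeR's quasi-likelihood test, and since this contrast chose the genes nothing is read from it. Atcayos was higher in the NR mouse of 27 pairs, with a median log2 ratio of 0.29. Its exceptions were both sedentary pairs of day 5 and the same running pair of day 7. Atcay was higher in 24 of 30 pairs and Dapk3 in 18 of 30. Nmrk2 was lower and Atcayos higher together in 26 pairs. Atcay was higher as well in 21 of these, and Dapk3 too in 13. The Nmrk2 share of the reads was lower with NR in 29 of 30 pairs, by a median of 19.2 percentage points.

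**Figure D3:**
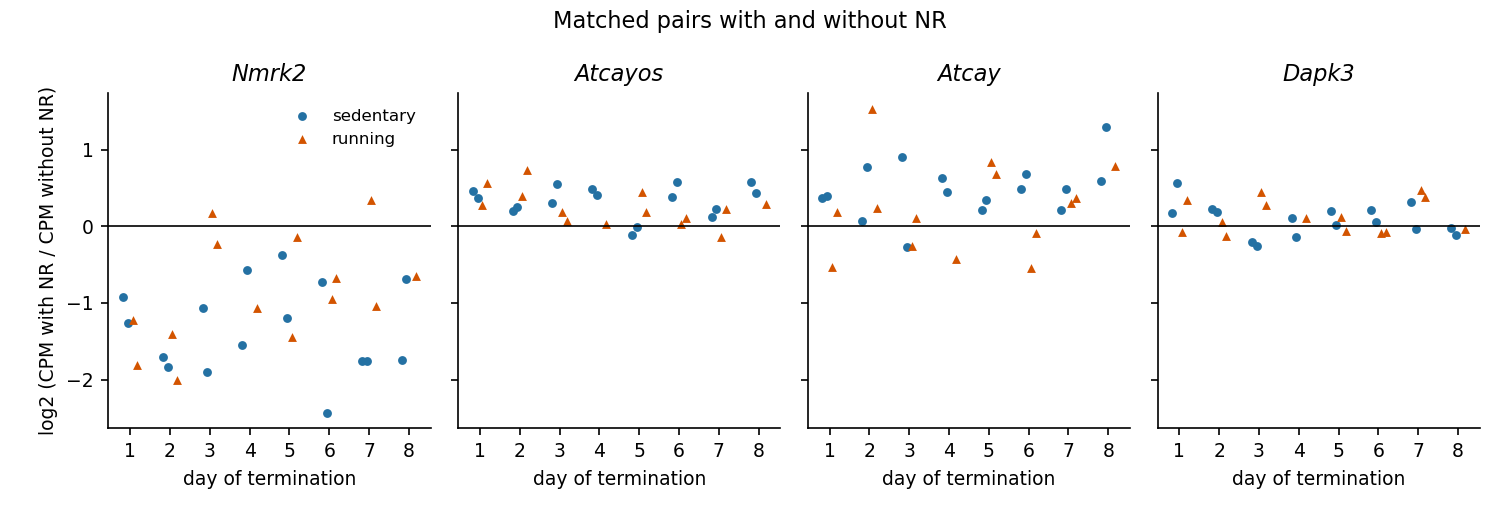
Log2 ratio of the level with NR to the level without (y axis) for 30 pairs of mice of the same session and PT status, by day of termination (x axis), with sedentary pairs as circles and running pairs as triangles. Nmrk2 points lie below 0 in 28 pairs and Atcayos points above 0 in 27, while Dapk3 points lie on both sides.

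Day by day, the difference in Nmrk2 kept its sign. Mean levels with NR were below those without on 8 of 8 days, with log2 ratios of -1.69 (day 2) to -0.84 (day 5). Atcayos and Atcay means were higher with NR on 8 of 8 days, with log2 ratios of 0.11 to 0.42 and 0.10 to 0.68. Dapk3 was higher on 7 of 8 days. Among mice without NR the Nmrk2 day means ranged from 68.2 CPM on day 1 to 117 CPM on day 2. Among mice with NR they ranged from 25.8 CPM on day 1 to 61.2 CPM on day 3. The day means within an arm thus spanned a range about as wide as the difference between the arms. In cohort 1 the Nmrk2 means were 41.9 ± 18.6 CPM with NR (n = 16) and 100.1 ± 40.6 CPM without (n = 15), and in cohort 2 they were 40.9 ± 15.3 CPM (n = 15) and 79.1 ± 24.1 CPM (n = 16). Fitted within a cohort, the log2 difference of Nmrk2 with NR was -1.27 ± 0.22 (SE) in cohort 1 and -0.90 ± 0.18 in cohort 2, and that of Atcayos was 0.35 ± 0.05 and 0.23 ± 0.05. Without the 8 libraries rich in ribosomal-like reads the differences over both cohorts were -1.15 ± 0.16 for Nmrk2 and 0.27 ± 0.04 for Atcayos, close to those with all libraries.

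No difference with running was detected for the 4 genes. Nmrk2 had 15.6 to 150 CPM in runners (median 57.7 CPM, n = 30) and 17.9 to 150 CPM in sedentary mice (median 55.3 CPM, n = 32). Its log2 change with running was -0.06 ± 0.14 (SE; edgeR adjusted p = 0.847), with a 95% interval of -0.33 to 0.22. Of the 4 members 0 passed, beside 14% of all genes tested (2035 of 14549) under edgeR's quasi-likelihood test with Benjamini-Hochberg adjustment. At that share a count of 0 among 4 genes would be usual. Atcayos changed by -0.07 ± 0.04 (adjusted p = 0.212), Atcay by -0.18 ± 0.09 (adjusted p = 0.18) and Dapk3 by -0.05 ± 0.04 (adjusted p = 0.425), all on the log2 scale. All 4 estimates were below 0, and each interval of Nmrk2, Atcayos and Dapk3 included 0. That of Atcay, unadjusted for the number of genes, was -0.35 to -0.0030. Its unadjusted p in edgeR's quasi-likelihood test was 0.0519, so this interval is not read as a difference. These intervals take animals as the units, although running was compared between sessions. Of 30 running and sedentary pairs matched for day, NR and PT, the runner was lower in 16 for Nmrk2, 19 for Atcayos, 20 for Atcay and 17 for Dapk3, and the 2 mice of these pairs came from different sessions.

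No difference with PT was detected either. Nmrk2 had 21.1 to 150 CPM with PT (median 60.5 CPM, n = 32) and 15.6 to 150 CPM without (median 55.6 CPM, n = 30). The log2 change was 0.08 ± 0.14 (SE), with a 95% interval of -0.20 to 0.36 (edgeR adjusted p = 1). Atcayos had -0.0047 ± 0.04, Atcay -0.11 ± 0.09 and Dapk3 0.03 ± 0.04, each with an edgeR adjusted p of 1. The share of all genes that passed for PT was 0% (0 of 14549 in edgeR and 580 at an unadjusted p under 0.05). In matched pairs of a session, Nmrk2 was higher with PT in 16 of 30.

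Whether running or PT went with a different NR response was tested by interaction terms. In runners the NR difference of Nmrk2 was smaller in size, at -0.85 ± 0.30 without PT and -0.98 ± 0.28 with PT (log2, SE). In sedentary mice it was -1.44 ± 0.28 without PT and -1.17 ± 0.28 with PT. The interaction of running with NR was 0.39 ± 0.28 (SE; edgeR adjusted p = 1.00), with a 95% interval of -0.17 to 0.94, so these values do not differ beyond their error. For Atcayos the NR differences were 0.35 ± 0.07 and 0.31 ± 0.07 in sedentary mice without and with PT. In runners they were 0.20 ± 0.08 and 0.27 ± 0.07. The interaction was -0.10 ± 0.08 (edgeR adjusted p = 1.00). For Atcay the sedentary values of 0.52 ± 0.17 and 0.43 ± 0.17 stood against 0.14 ± 0.19 and 0.21 ± 0.18 in runners, with an interaction of -0.30 ± 0.18 (edgeR adjusted p = 1.00). The share of genes that passed was 0% for running with NR (525 of 14549 at an unadjusted p under 0.05), and 0% for NR with PT (327) and for all 3 factors (403). DESeq2 also called 0 genes for each of these terms and for PT.

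The interaction of running with PT had the smallest unadjusted p of Atcayos. Its mean with PT was 113.5 ± 18.4 CPM (SD, n = 16) in sedentary mice and 99.3 ± 14.2 CPM (n = 16) in runners. Without PT it was 104.8 ± 15.8 CPM (n = 16) in sedentary mice and 108.2 ± 11.04 CPM (n = 14) in runners. The log2 interaction was -0.24 ± 0.07 (SE), with an unadjusted p of 0.00239 and an adjusted p of 1.00 in edgeR, where 0% of genes passed (511 at an unadjusted p under 0.05, and 6 called by DESeq2). The same term was -0.35 ± 0.18 for Atcay, -0.12 ± 0.08 for Dapk3 and 0.36 ± 0.29 for Nmrk2, none past the threshold.

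Cohort and time of day were tested in the same way. Nmrk2 differed between cohort 2 and cohort 1 by -0.15 ± 0.14 (log2, SE; edgeR adjusted p = 0.829). Of all genes 0.131% passed there (19 of 14549), and 0 of the 4 members. Labels also give a purification pool for each library. All of cohort 1 shared the same pool, and the other pools held only cohort 2 libraries. Cohort and pool thus cannot be fully told apart, and with pool as a covariate 0 genes passed for cohort in edgeR. The NR difference of Nmrk2 was smaller in size in cohort 2, with an interaction of 0.34 ± 0.28 (edgeR adjusted p = 0.718) and a 95% interval of -0.21 to 0.90, and 0% of genes passed (1427 at an unadjusted p under 0.05). Between noon and morning 0% of genes passed (768 at an unadjusted p under 0.05), and Nmrk2 differed by -0.09 ± 0.14. Atcay showed the smallest unadjusted p for the interaction of NR with time. Its means were 16.2 ± 3.88 CPM (n = 16) with NR and 11.1 ± 2.45 CPM (n = 15) without in the morning, and 14.7 ± 3.46 CPM (n = 15) and 13.2 ± 3.32 CPM (n = 16) at noon. The term was -0.38 ± 0.17 (edgeR unadjusted p = 0.0291, adjusted p = 1.00), and 0% of genes passed (604 at an unadjusted p under 0.05). For Atcayos the same term was -0.16 ± 0.07 (edgeR unadjusted p = 0.0370), also not past the threshold after adjustment. For Nmrk2 and Dapk3 it was 0.06 ± 0.29 and 0.02 ± 0.08.

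Within each NR arm, animals with more Nmrk2 had less Atcayos. With NR the Pearson r of their log2 CPM was -0.60 (permutation p = 0.00035, adjusted p = 0.0035 over the 10 relations computed, n = 31) and Spearman's rho -0.55 (permutation p = 0.00163, adjusted p = 0.0125). Without NR r was -0.49 (permutation p = 0.00471, adjusted p = 0.0157, n = 31) and rho -0.51 (permutation p = 0.00327, adjusted p = 0.0125). These relations use only animals of 1 arm, so the difference between arms does not enter them. Leaving out the 2 animals with Nmrk2 farthest from the median gave r of -0.64 with NR and -0.50 without. After removal of group, day and time, r was -0.54 and -0.50. Over all 62 animals after the same removal, genes on other chromosomes were opposed as strongly, such as Rpain to Nmrk2 (r = -0.54) and Serpinh1 to Atcayos (r = -0.66). A relation of this size is thus not particular to these neighbours, and the share of all genes that reach it was not computed.

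The same relation was computed within each cohort. With NR r was -0.58 in cohort 1 (permutation p = 0.0157, n = 16) and -0.64 in cohort 2 (permutation p = 0.0103, n = 15). Without NR it was -0.51 in cohort 1 (permutation p = 0.0539, n = 15) and -0.40 in cohort 2 (permutation p = 0.121, n = 16). The sign was negative in all 4, but without NR neither cohort alone passed 0.05 on r. By rho, cohort 1 without NR did pass (-0.60, unadjusted permutation p = 0.02), and cohort 2 did not (-0.42, unadjusted permutation p = 0.108). Without the libraries rich in ribosomal-like reads r was -0.63 with NR (n = 26) and -0.48 without NR (n = 28).

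**Figure D4:**
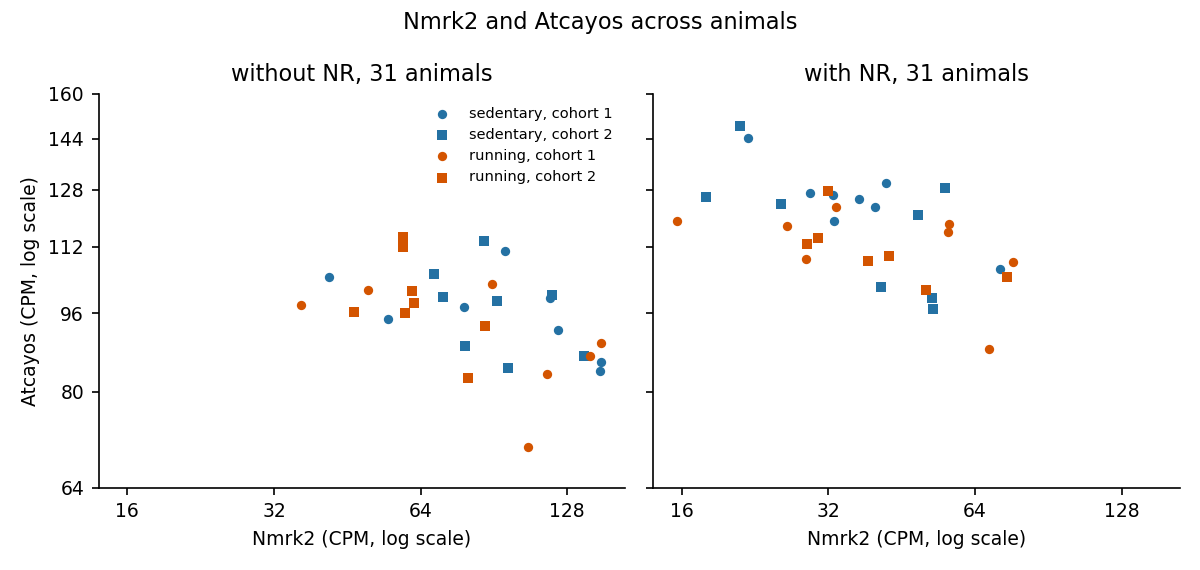
Atcayos against Nmrk2 (CPM, both axes on log scales) for the 31 animals without NR (left) and the 31 with NR (right), with colour for running and shape for cohort. In both panels animals with more Nmrk2 have less Atcayos, with Pearson r of -0.49 and -0.60.

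Atcayos and Atcay varied in the same direction. Their r was 0.52 with NR (permutation p = 0.00248, adjusted p = 0.0124, n = 31) and 0.46 without (permutation p = 0.00873, adjusted p = 0.0218, n = 31), and rho was 0.50 (permutation p = 0.00374) and 0.45 (permutation p = 0.0113). Without the 2 animals farthest from the median of Atcayos r was 0.39 (permutation p = 0.0345) and 0.35 (permutation p = 0.0628), so r was smaller in both arms without those animals, and without NR its p no longer passed 0.05. Nmrk2 and Atcay had r of -0.29 with NR (permutation p = 0.114, adjusted p = 0.19) and -0.40 without (permutation p = 0.0274, adjusted p = 0.0547). Neither passed on r, although without NR rho was -0.42 (permutation p = 0.0211, adjusted p = 0.0422). Without the 2 animals farthest from the median of Nmrk2 that rho was -0.30 (permutation p = 0.116). In the arm with NR the r of Nmrk2 and Atcay was then -0.37 (unadjusted permutation p = 0.0492). Dapk3 showed no relation past the threshold with Nmrk2 (r of -0.02 with NR and 0.22 without) or with Atcayos (0.08 and -0.19), with adjusted permutation p of 0.325 to 0.9. Leaving out the 2 animals farthest from the median of Nmrk2, r of Nmrk2 and Dapk3 was -0.03 with NR. In the arm without NR it was 0.37 (unadjusted permutation p = 0.0457).

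The genes whose levels followed Nmrk2 most closely were sought among 11775 genes averaging 1 CPM or more, over all 62 animals after removal of group, day and time. These correlations are a description, and all share the same libraries. The highest were Smtnl2, a smoothelin-like gene (r = 0.66), Mettl21c, a protein lysine methyltransferase of muscle (r = 0.59), Ermp1 (r = 0.57), Smox, spermine oxidase (r = 0.55), and Gdap1 (r = 0.54). Among the lowest were Rpain (r = -0.54), Ubp1 (r = -0.53), Atcayos itself (r = -0.52) and Enpp1 (r = -0.52). The genes nearest to Atcayos were Cars, a cysteinyl-tRNA synthetase (r = 0.69), Klhl33, Gucd1 and Dcaf8 (r = 0.65 each) and Fdft1, squalene synthase (r = 0.63). The most opposed to it were Serpinh1, a collagen chaperone (r = -0.66), Rab8b and Car13 (r = -0.65 each), Fcrls (r = -0.61) and Mtpn (r = -0.60). The NR difference of Smtnl2 was -0.02 ± 0.05 and that of Cars 0.0015 ± 0.03 (log2, SE).

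The 20 other tested genes around the locus lay closer to 0 for NR than Nmrk2, Atcayos and Atcay, whereas Dapk3 (0.09 ± 0.04, SE) lay within their range. Because the members were chosen with the NR difference known, their standing apart was set by that choice and is only described. Within 0.2 Mb on either side of Nmrk2 the table holds 40 genes, of which 24 were tested and 20 are not members. In edgeR 0 of these 20 passed for NR, running or PT, beside 0.0206%, 14% and 0% of all genes, so that for NR and PT the count says nothing particular to them. Their log2 changes with NR ran from -0.14 to 0.19 with a median of 0.01, beside -0.00044 for all genes tested. The nearest tested neighbours were Eef2, the translation elongation factor beside Dapk3 (NR -0.07 ± 0.03, SE; edgeR adjusted p = 0.771), and Zfr2 beside Atcay (-0.04 ± 0.08). At an unadjusted p under 0.05 edgeR marked 1 of the 20 for NR, which was Eef2, 1 for running and 0 for PT, where over all 14549 genes it marked 828, 4150 and 580. The 1 for running was Map2k2 (-0.09 ± 0.04; adjusted p of 0.0839 in edgeR).

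**Figure D5:**
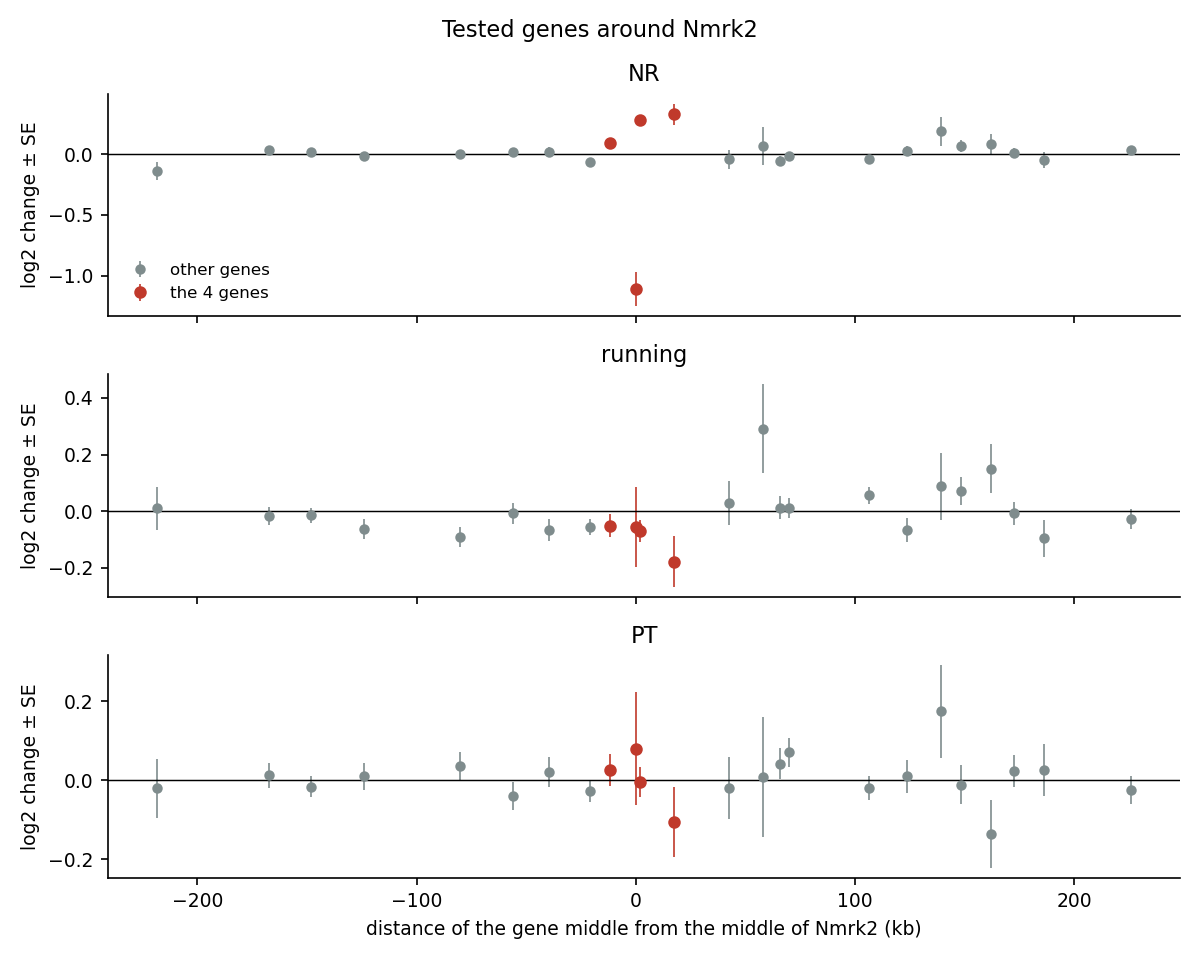
Log2 change with SE (y axis) for NR, running and PT of the 24 tested genes around Nmrk2, by the distance of the gene's middle from that of Nmrk2 in kb (x axis). For NR Nmrk2 stands at -1.11 and Atcay and Atcayos at 0.33 and 0.28, whereas the 20 other genes lie between -0.14 and 0.19, and each panel has its own y scale. Dapk3, at 0.09, lies within that range, and the members were chosen with the NR difference known.

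Other genes of NAD metabolism had log2 changes with NR near 0. Of 47 listed genes for synthesis, entry of precursors and consumption 36 were tested, with a median log2 change of -0.01, and 0 passed for NR in edgeR, beside 0.0206% of all genes, a share at which none of 36 would be usual. The paralogue Nmrk1 changed by -0.04 ± 0.05 (SE) and Nampt by -0.05 ± 0.03. Slc25a51, the mitochondrial NAD carrier, was the only 1 of the 36 at an unadjusted p under 0.05 for NR in edgeR (0.06 ± 0.02, with an adjusted p of 0.594). With running 4 of the 36 rose and 1 fell, all in the consumption list. That share is near the 14% called among all genes, so the count says nothing particular to the list. Cd38, an NAD-consuming ectoenzyme, rose by 0.34 ± 0.06 (edgeR adjusted p = 0.000152) and the mitochondrial sirtuin Sirt3 by 0.26 ± 0.05 (edgeR adjusted p = 9.5e-05). Sirt5 and Sirt4 rose by 0.16 ± 0.05 and 0.11 ± 0.04, and Tnks2, a tankyrase, fell by 0.09 ± 0.03 (edgeR adjusted p of 0.0308, 0.0359 and 0.0144). Since running differed between sessions, it was also fitted to counts summed over each of the 16 sessions, where 7.52% of genes passed in edgeR (1245 of 16559). There Sirt3 and Cd38 passed at 0.26 ± 0.04 and 0.34 ± 0.07 (edgeR adjusted p of 0.00349 and 0.00853). Sirt5, Tnks2 and Sirt4 did not (edgeR adjusted p of 0.0575, 0.071 and 0.205), so 2 of the 36 held by session, a share not above that of all genes. Neither Nmrk2 nor any of the 11 tested genes of synthesis and salvage passed for running. With PT 0 of the 36 passed in edgeR, and 0 had an unadjusted p under 0.05.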

How the data were processed

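The authors deposited gene read counts of 62 libraries with gene coordinates and lengths. Per the submitters' processing notes, STAR 2.7.3a, featureCounts 2.0.0 and the build mm10 were used. Annotation release and strand setting: not given in the sources used here. The deposited length (unit: other) matched GENCODE M21 exon unions in 99.5% of 55394 matched genes.

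Counts were fitted with edgeR 4.0.16 (R 4.3.3; TMM, filterByExpr with a minimum count of 10 and total of 15, robust quasi-likelihood F tests, two-sided) with terms for running, NR, PT, their interactions, day and time (46 residual degrees of freedom), and Benjamini-Hochberg adjustment over 14549 genes at 0.05. Intervals are 1.96 SE. CPM and RPKM are TMM-scaled, and log2 CPM used a prior count of 2. Relations used 100000 two-sided permutations (scipy 1.17.1). On simulated counts for NR (14460 genes), 100% of 50 genes changed 2-fold, 92% of those changed 1.5-fold, 76% at 1.25-fold and 12% at 1.1-fold were recovered. Calls on unchanged genes numbered 7. The simulation held no differences by day, session or running and changed only genes averaging 1 CPM or more, so recovery in the real data may differ. Reads are not independent molecules. Other value columns: none.

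The members, gene lists and tests were chosen with earlier results of these data known. Genes outside the members were named by rule: the 5 highest and 5 lowest correlations, called NAD genes, those with the smallest p, and nearest neighbours. One gene that this rule names is not reported here. Alternatives were DESeq2 1.42.0, other scaling, no filter, session, pool or replicate terms, single cohorts, each day left out and, added after seeing the data, relations without the libraries rich in ribosomal-like reads and session sums for the NAD list. A comparison of the NMRK2 and NMRK1 proteins was planned and not run.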

Additional observations from a re-analysis of the deposited data

Results flagged for a closer look

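In 3 of 32 combinations of gene and group, all of them of Dapk3, 1 animal lay far from the rest of its group by Dixon's ratio, which chance alone gives in about 1 group in 20. The runner with both supplements terminated on day 7 had 19.7 CPM, with the next animal at 15.4 CPM. The sedentary mouse with PT alone of day 3 had 16.6 CPM, with the next at 14.5 CPM. The sedentary mouse with neither supplement of day 1 had 10.0 CPM, with the next at 13.9 CPM. For Nmrk2, Atcayos and Atcay no animal passed the limit for its group's size, although the runner with neither supplement at 150 CPM of Nmrk2 had its next animal at 86.9 CPM.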

How the results depend on the processing

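For NR the log2 difference of each member kept its sign under every alternative run, and leaving out each day gave -1.16 to -1.01 for Nmrk2 and 0.26 to 0.31 for Atcayos. The calls for NR numbered 3, but 1 in cohort 1 alone, 0 in cohort 2 alone, 4 with DESeq2, 2 with purification pool as a covariate, 2 without the libraries rich in ribosomal-like reads, and 2 to 4 with each day left out (4 without day 2, 2 without day 1, 4, 5, 6 or 8). The log2 changes listed next, each with another sign than in all animals, belong to effects on single members that passed no test.

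In cohort 1 alone running gave 0.088 for Nmrk2 and 0.012 for Dapk3, NR by PT gave -0.018 for Nmrk2, and the term of all 3 factors gave -0.30 for Atcay and 0.054 for Dapk3. In cohort 2 alone PT gave -0.18 for Nmrk2, 0.031 for Atcayos and 0.029 for Atcay, and NR by PT gave -0.0033 for Atcayos. There noon against morning gave 0.13 for Nmrk2 and -0.067 for Atcayos, and NR by time gave -0.062 for Nmrk2 and -0.093 for Dapk3. With purification pool as a covariate NR by PT was -0.0080 for Atcayos, NR by time -0.011 for Nmrk2, and cohort 2 against 1 was 0.28 for Atcay and -0.040 for Dapk3. With sessions as a block NR by PT was 0.0019 for Atcay. Without the libraries rich in ribosomal-like reads NR by PT was 0.058 for Atcay, the term of all 3 factors 0.067 and NR by cohort 0.0037 for Dapk3. Cohort 2 against 1 was then 0.031 for Atcay and -0.0059 for Dapk3, noon against morning 0.013 for Nmrk2, and NR by time -0.0098 for Dapk3.

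Replicate numbers did not pair the animals: the mean correlation of same-numbered samples was 0.01, the lowest -0.40, and 12 of 62 samples correlated best with their own number. With the replicate block the running difference of Atcay was -0.24 ± 0.08 (edgeR adjusted p = 0.032), and cohort 2 against 1 gave 0.84 for Atcay. Under the block noon against morning gave 0.052 for Nmrk2, -0.0046 for Atcayos and 0.0042 for Dapk3, NR by time gave -0.30 for Nmrk2, and the calls were 2045 for running, 3 for NR, 1 for noon against morning and 0 for cohort.

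Genes called for running numbered 1333 without a filter on low counts, 1245 from counts summed per session, 623 in cohort 1 and 63 in cohort 2. In the NAD list 2 genes in place of 5 were called for running by session. DESeq2 called 6 genes for running by PT, 1 for noon against morning and 97 for cohort. Cohort calls were 7 without a filter, 0 with pool as a covariate and 103 without the libraries rich in ribosomal-like reads, and 254 genes were called for noon against morning in cohort 2. Without NR the Pearson r of Nmrk2 with Atcayos was -0.51 in cohort 1 and -0.40 in cohort 2, neither past 0.05. Spearman's rho passed in cohort 1 (-0.60, unadjusted permutation p = 0.02).

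Leaving out each day in turn gave these ranges. For Nmrk2 they were -0.14 to 0.026 for running, -0.034 to 0.20 for PT, -0.057 to 0.22 for NR by PT and -0.083 to 0.26 for NR by time. For Atcayos they were -0.022 to 0.0091 for PT, -0.014 to 0.039 for NR by PT and -0.0074 to 0.048 for noon against morning. For Atcay they were -0.14 to 0.13 for NR by PT, -0.023 to 0.11 for noon against morning, -0.063 to 0.028 for cohort and -0.059 to 0.30 for all 3 factors. For Dapk3 they were -0.010 to 0.051 for PT, -0.039 to 0.088 for running by NR, -0.084 to 0.028 for NR by cohort, -0.065 to 0.076 for NR by time and -0.037 to 0.023 for cohort. Genes called ranged from 1036 to 2358 for running (1036 without day 1, 1189 without day 4), 0 to 21 for cohort (0 without day 1, 6 or 7, and 4 without day 5) and 0 to 206 for noon against morning (145 without day 2, 206 without day 3). The causes were not tested.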
